A study of Mus musculus with 12 samples.

Results

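Interferon-stimulated genes are transcribed when interferon binds its receptors on a cell. The 40 described here are mouse genes of antiviral and inflammatory defence, a list given by symbol and read from the counts of 25319 genes in the left ventricle. Each symbol matched 1 gene, and all 40 passed the filter on low counts that left 14965 genes to test. By role they are 9 sensors of foreign nucleic acid, 3 transcription factors, 5 genes of the ISG15 system with related ubiquitin and ADP-ribose enzymes, 11 antiviral effectors, 6 interferon-inducible GTPases and 6 others.

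The hearts came from male C57BL/6 mice in 4 groups of 3, with 1 mouse per library. TAC dantrolene mice had transverse aortic constriction (TAC), in which a clip on the aortic arch makes the ventricle pump against a raised pressure, and were given oral dantrolene, a blocker of the calcium release channels of muscle, with 30 mg per kg each day over 4 weeks. TAC control mice had that surgery and carry the drug label control, which says nothing of a vehicle. Sham dantrolene and sham control mice went through surgery with no clip placed, with the drug at the same dose and without it. Mice were operated on when 8 weeks old and sampled when 12 weeks old.

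Type I interferons signal through the receptor chains IFNAR1 and IFNAR2 and the kinases JAK1 and TYK2 to a complex that holds STAT2 and IRF9, which binds a DNA element called ISRE. Interferon gamma, the type II interferon, signals through its own receptor, JAK1 and JAK2, and acts on an element called GAS. Many genes answer to both, and in the heart cardiomyocytes, fibroblasts, endothelial cells and macrophages can all express them.

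The promoters of 6 members are shown because these genes carry the contrasts that follow. Ifit3, Ifit3b and Ifit1 lie in a gene cluster on chromosome 19 and had a lower mean in TAC dantrolene than in TAC control hearts, a difference that did not pass the test, Isg15 was the highest of its group in each library that stood apart from the rest, and Irgm1 and Igtp were high in a single mouse. Each sequence holds the 250 bases before the annotated start, read on the gene's own strand from RefSeq on GRCm38.p6. The positions are chr19:34583279-34583528 (plus strand) for Ifit3, chr19:34607707-34607956 (plus strand) for Ifit3b, chr19:34640639-34640888 (plus strand) for Ifit1, chr4:156200819-156201068 (minus strand) for Isg15, chr11:48871421-48871670 (minus strand) for Irgm1 and chr11:58199306-58199555 (plus strand) for Igtp. Capitals mark every match on either strand to the ISRE core, which is GAAA, any 2 bases and GAAA, or to the GAS core TTCNNNGAA.
Ifit3: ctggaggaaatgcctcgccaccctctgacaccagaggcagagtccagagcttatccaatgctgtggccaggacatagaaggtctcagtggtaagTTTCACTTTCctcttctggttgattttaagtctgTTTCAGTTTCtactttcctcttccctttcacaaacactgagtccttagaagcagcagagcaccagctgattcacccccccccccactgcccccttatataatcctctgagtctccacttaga
Ifit3b: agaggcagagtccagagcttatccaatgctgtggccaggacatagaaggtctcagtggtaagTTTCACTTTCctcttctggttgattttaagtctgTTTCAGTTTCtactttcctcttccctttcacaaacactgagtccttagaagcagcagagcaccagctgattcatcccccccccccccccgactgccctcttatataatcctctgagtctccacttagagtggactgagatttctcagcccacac
Ifit1: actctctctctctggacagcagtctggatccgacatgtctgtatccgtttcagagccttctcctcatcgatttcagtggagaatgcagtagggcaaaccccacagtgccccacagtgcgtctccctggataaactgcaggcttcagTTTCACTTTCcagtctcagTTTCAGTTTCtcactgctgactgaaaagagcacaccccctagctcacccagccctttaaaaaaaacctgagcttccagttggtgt
Isg15: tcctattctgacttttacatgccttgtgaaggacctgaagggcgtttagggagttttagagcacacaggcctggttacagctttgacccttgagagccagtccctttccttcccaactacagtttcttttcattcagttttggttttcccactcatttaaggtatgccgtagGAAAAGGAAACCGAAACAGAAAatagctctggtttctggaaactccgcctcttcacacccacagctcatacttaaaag
Irgm1: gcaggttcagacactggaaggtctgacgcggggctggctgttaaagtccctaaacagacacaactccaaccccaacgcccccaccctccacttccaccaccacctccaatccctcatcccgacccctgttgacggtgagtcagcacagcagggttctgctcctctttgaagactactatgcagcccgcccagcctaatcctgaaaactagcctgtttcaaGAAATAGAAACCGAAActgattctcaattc
Igtp: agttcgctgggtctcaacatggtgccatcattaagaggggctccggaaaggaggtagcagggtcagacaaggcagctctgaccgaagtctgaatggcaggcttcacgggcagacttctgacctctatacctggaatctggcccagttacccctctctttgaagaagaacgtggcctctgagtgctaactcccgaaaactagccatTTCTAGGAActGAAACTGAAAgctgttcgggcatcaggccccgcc

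Ifit3 and Ifit3b shared an unbroken run of 169 bases, whereas either of them and Ifit1 shared at most 13 bases in a row. Each of these 3 promoters held 2 ISRE matches, on the strand opposite to the gene. The capitals in Isg15 are 3 overlapping ISRE matches and those in Irgm1 are 2, while Igtp held a GAS match and an ISRE match that did not overlap. In the window from 250 bases before to 50 after the start, with overlapping matches counted and a gene counted if any of its starts matched, 16 of the 30 members in the RefSeq table (53.3%) had an ISRE core, as had 3.99% of all 27025 genes there. A GAS core stood in 9 of the 30 (30.0%), as in 9.55% of all genes. Mx1, Mx2, Parp9, Usp18, Dhx58, Zbp1, Oas2, Parp14, Rtp4 and Ifi27l2a had no entry. A match of letters does not show that a factor binds there.

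Total counts per library ran between 25766378 and 38363106. Levels per library are in CPM, counts scaled to a common library size with edgeR's TMM factors, which ran between 0.705 and 1.25. On the first principal component of log2 CPM, with 41.7% of the variance, 1 library of each group stood apart, namely TAC dantrolene 1, TAC control 1, sham dantrolene 3 and sham control 3, with scores of -85.6 to -34.7 beside 22.7 to 50.7 in the other 8. Mitochondrial transcripts made up from 1.71% of the counts in TAC dantrolene 2 to 22.4% in TAC control 3. In whole tissue, fewer cells of a type and less RNA per cell cannot be told apart.

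Levels of different genes were compared in FPKM, which the authors scaled to gene length. In sham control hearts Ifi27l2a, a small hydrophobic protein, came first at 120.8 ± 63.7 FPKM and Bst2, which tethers budding virus to the cell surface, came next at 80.3 ± 15.8 FPKM (SD, n = 3), a difference within their spread. Lgals3bp, a secreted galectin-binding protein, followed at 24.5 ± 0.525 FPKM, below Bst2 beyond their spread but not apart from Ifi35 at 22.7 ± 3.64 FPKM. Isg15 was at 14.96 ± 2.86 FPKM and Igtp at 11.1 ± 2.19 FPKM, and Samhd1, Irf7, Irf9 and Usp18, between 8.897 and 10.2 FPKM, did not differ beyond their spread. Ifit1 at 0.247 ± 0.0737 FPKM, Mx2 at 0.213 ± 0.0551 FPKM, Eif2ak2 at 0.19 ± 0.0781 FPKM and Ifi44 at 0.12 ± 0.0624 FPKM closed the order, neighbours again lying within their spread.

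**Figure D1:**
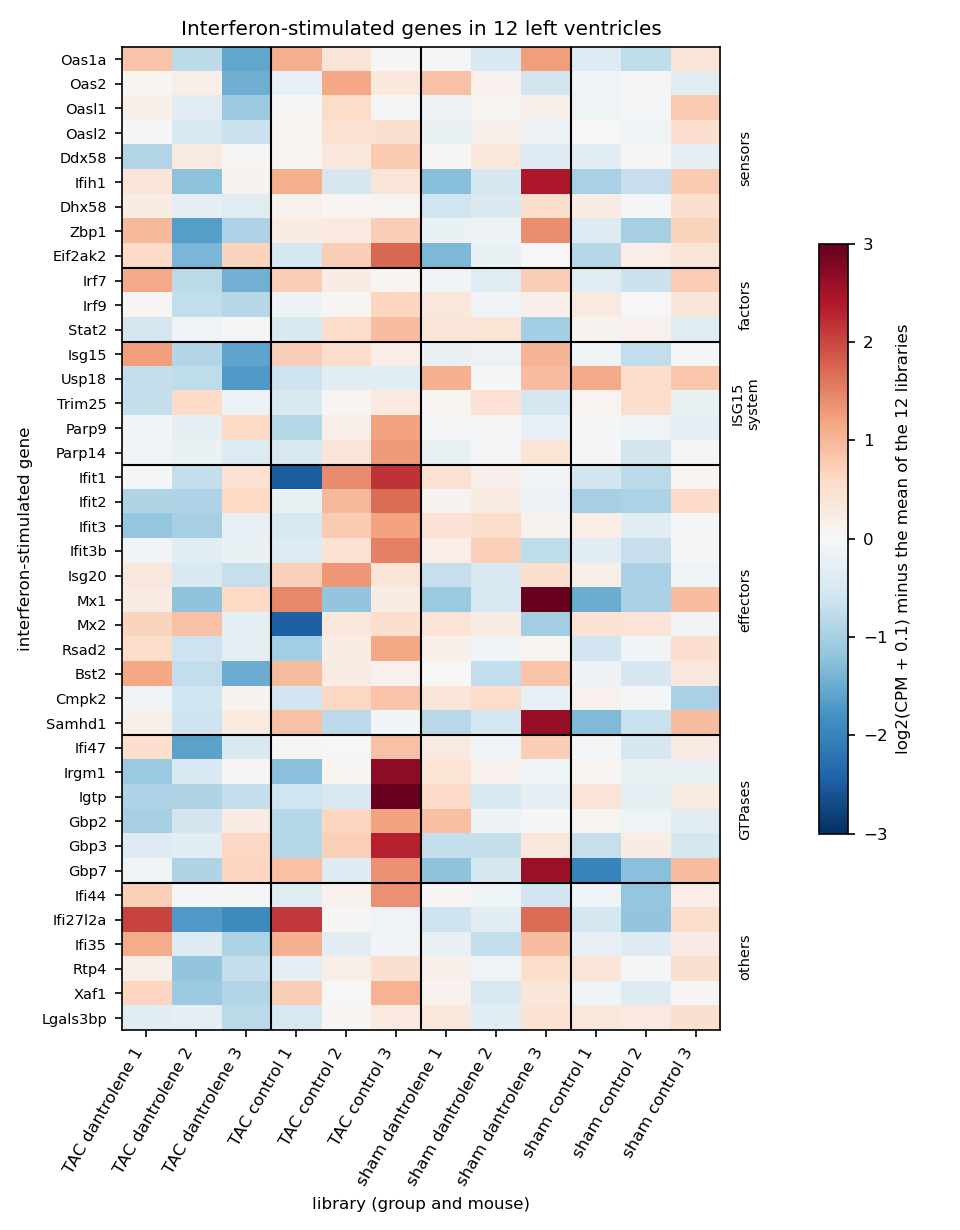
Level of each of the 40 genes in each of the 12 libraries, as log2(CPM + 0.1) minus the gene's mean over all libraries (red above, blue below, the colours ending at 3 either way), genes down the page by role and libraries across by group. TAC control 3 held the highest value for 19 genes and TAC dantrolene 3 the lowest for 12.

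The question of the first comparison is what dantrolene did in the overloaded ventricle. Fitted log2 fold changes of TAC dantrolene over TAC control were negative for 38 of 40 members, beside 48.2% of all genes, with a median of -0.62 beside 0.02 over all genes. No member passed the threshold, an adjusted p under 0.05 in edgeR's quasi-likelihood test, and 0% of all genes did. Without adjustment 6 members were lower at that level, beside 1.47% of all genes, and 0 were higher, beside 1.78%. The Wald test of DESeq2 likewise called 0 members after adjustment, beside 0.0437% of all genes, and 6 lower without it, beside 1.54%. All 3 TAC dantrolene mice lay below all 3 TAC control mice for Igtp, Oasl2, Isg20 and Usp18, 4 members lower beside 2.08% of all genes, and for 0 members higher beside 2.68%.

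By role, the fold changes were negative for 9 of 9 sensors (median -0.57), 3 of 3 transcription factors (-0.67), 4 of 5 genes of the ISG15 system (-0.40), 10 of 11 effectors (-0.61), 6 of 6 GTPases (-1.09) and 6 of 6 others (-0.44). The sensors lay between -0.80 and -0.21. They include Oas1a, Oas2, Oasl1 and Oasl2 of the oligoadenylate synthetase family and the RNA helicases Ddx58 (RIG-I), Ifih1 (MDA5) and Dhx58 (LGP2). The other sensors are the Z-nucleic acid sensor Zbp1 and the kinase Eif2ak2 (PKR). The members without a negative sign were Mx2, of the Mx GTPase family, at 0.63 ± 0.84 and Trim25, the ubiquitin ligase of RIG-I, at 0.00 ± 0.37. Mx2 had 0 counts in TAC control 1.

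The Ifit genes encode proteins that bind foreign RNA and block its translation. Ifit3 (ENSMUSG00000074896.3, chr19:34583531-34588731, plus strand, GRCm38) measured 3.401, 3.85 and 6.58 CPM in TAC dantrolene hearts, against 5.55, 13.4 and 18.1 CPM in TAC control hearts, mice 1 to 3 in this order throughout. The groups overlapped in 1 pair, TAC dantrolene 3 lying above TAC control 1. Its log2 fold change was -1.42 ± 0.41 (SE), with the smallest p of the 40 at 0.0047 and an edgeR adjusted p of 1.00. Ifit2 measured 0.8503, 0.842 and 2.599 CPM in TAC dantrolene hearts, against 1.42, 3.38 and 5.61 CPM in TAC control hearts (log2 fold change -1.28 ± 0.63). For Ifit3b, a near copy of Ifit3 with which it may share reads, the levels were 1.26, 1.03 and 1.16 CPM in TAC dantrolene hearts, against 0.977, 1.84 and 3.997 CPM in TAC control hearts (-0.99 ± 0.52, edgeR adjusted p = 1.00 for both). TAC control 1 was the low mouse of its group for these genes, and most of all for Ifit1, which had 2 reads there. Ifit1 measured 0.931, 0.547 and 1.38 CPM in TAC dantrolene hearts, against 0.0888, 2.74 and 4.73 CPM in TAC control hearts.

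Isg20, an exonuclease of the effector list, measured 5.99, 3.45 and 2.91 CPM in TAC dantrolene hearts, against 7.86, 11.8 and 6.17 CPM in TAC control hearts, with no overlap. Its log2 fold change was -1.07 ± 0.46 (edgeR adjusted p = 1.00). The other effectors, Mx1, the radical enzyme Rsad2 (viperin), the nucleotide kinase Cmpk2, the nucleotide-depleting Samhd1 and Bst2, lay between -0.61 and -0.17.

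The GTPases act on the membranes around intracellular pathogens, and for Igtp and Irgm1 the size of the difference came from 1 mouse. Igtp (ENSMUSG00000078853.6, chr11:58199556-58207591, plus strand) measured 11.5, 11.6 and 13.4 CPM in TAC dantrolene hearts, against 14.3, 15.7 and 239.6 CPM in TAC control hearts. TAC control 3 was far above the other mice of its group, while the other TAC control mice lay just above the dantrolene-treated ones. Irgm1 (ENSMUSG00000046879.6, chr11:48861968-48871683, minus strand) measured 4.899, 7.81 and 10.99 CPM in TAC dantrolene hearts, against 4.396, 11.1 and 68.6 CPM in TAC control hearts. The fitted log2 fold changes were -2.89 ± 0.88 for Igtp and -1.83 ± 0.74 for Irgm1 (edgeR adjusted p = 1.00 for both), and without TAC control 3 they were -0.30 and 0.029. Of the guanylate-binding proteins, Gbp2 was at -0.91 ± 0.49 and Gbp3 at -1.26 ± 0.69 on the log2 scale (edgeR adjusted p = 1.00 for both), with TAC control 3 again the highest mouse, and without it they were at -0.43 and -0.10. Gbp7 and Ifi47 were at -0.81 ± 0.99 and -0.66 ± 0.50. Exons of Igtp share 162 bases with Irgm2 on the same strand, so reads of that gene may be counted in it.

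Among the transcription factors, Irf9 measured 26.4, 15.1 and 14.1 CPM in TAC dantrolene hearts, against 23.05, 26.02 and 40.001 CPM in TAC control hearts. TAC dantrolene 1, a library apart, was the one treated mouse within the range of TAC control. The log2 fold change was -0.68 ± 0.30 (edgeR adjusted p = 1.00), and 123 exonic bases of Irf9 are shared with Rnf31 on the same strand. Stat2, the partner of IRF9, measured 6.48, 8.35 and 8.96 CPM in TAC dantrolene hearts, against 6.71, 13.6 and 17.6 CPM in TAC control hearts (-0.67 ± 0.42). Irf7 (ENSMUSG00000025498.12, chr7:141262706-141266481, minus strand), which amplifies interferon production, measured 54.7, 14.1 and 9.08 CPM in TAC dantrolene hearts, against 41.5, 29.1 and 25.5 CPM in TAC control hearts (-0.30 ± 0.60, edgeR adjusted p = 1.00 for both). For Irf7 the TAC dantrolene group held both the highest and the lowest of all 12 libraries.

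ISG15 is a ubiquitin-like tag, and USP18 removes it and damps type I receptor signalling. Isg15 (ENSMUSG00000035692.6, chr4:156199424-156200818, minus strand) measured 35.4, 8.04 and 4.89 CPM in TAC dantrolene hearts, against 24.7, 21.9 and 17.1 CPM in TAC control hearts, a spread like that of Irf7, with TAC dantrolene 1 the highest and TAC dantrolene 3 the lowest of the 12 libraries. Usp18 (ENSMUSG00000030107.9, chr6:121245906-121270917, plus strand) measured 5.59, 5.45 and 2.79 CPM in TAC dantrolene hearts, against 5.99, 7.43 and 7.49 CPM in TAC control hearts, so that the groups did not overlap. The log2 fold changes were -0.40 ± 0.60 for Isg15 and -0.60 ± 0.36 for Usp18. Parp14, an ADP-ribosyltransferase, was at -0.82 ± 0.42, Oasl2 at -0.72 ± 0.30 and Xaf1, which promotes cell death, at -0.88 ± 0.45 (edgeR adjusted p = 1.00 for all 5). Parp9, which acts on chromatin with a partner ubiquitin ligase, was at -0.28 ± 0.46, and the others Ifi44, Ifi27l2a, Ifi35, Rtp4 and Lgals3bp lay between -0.63 and -0.15.

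**Figure D2:**
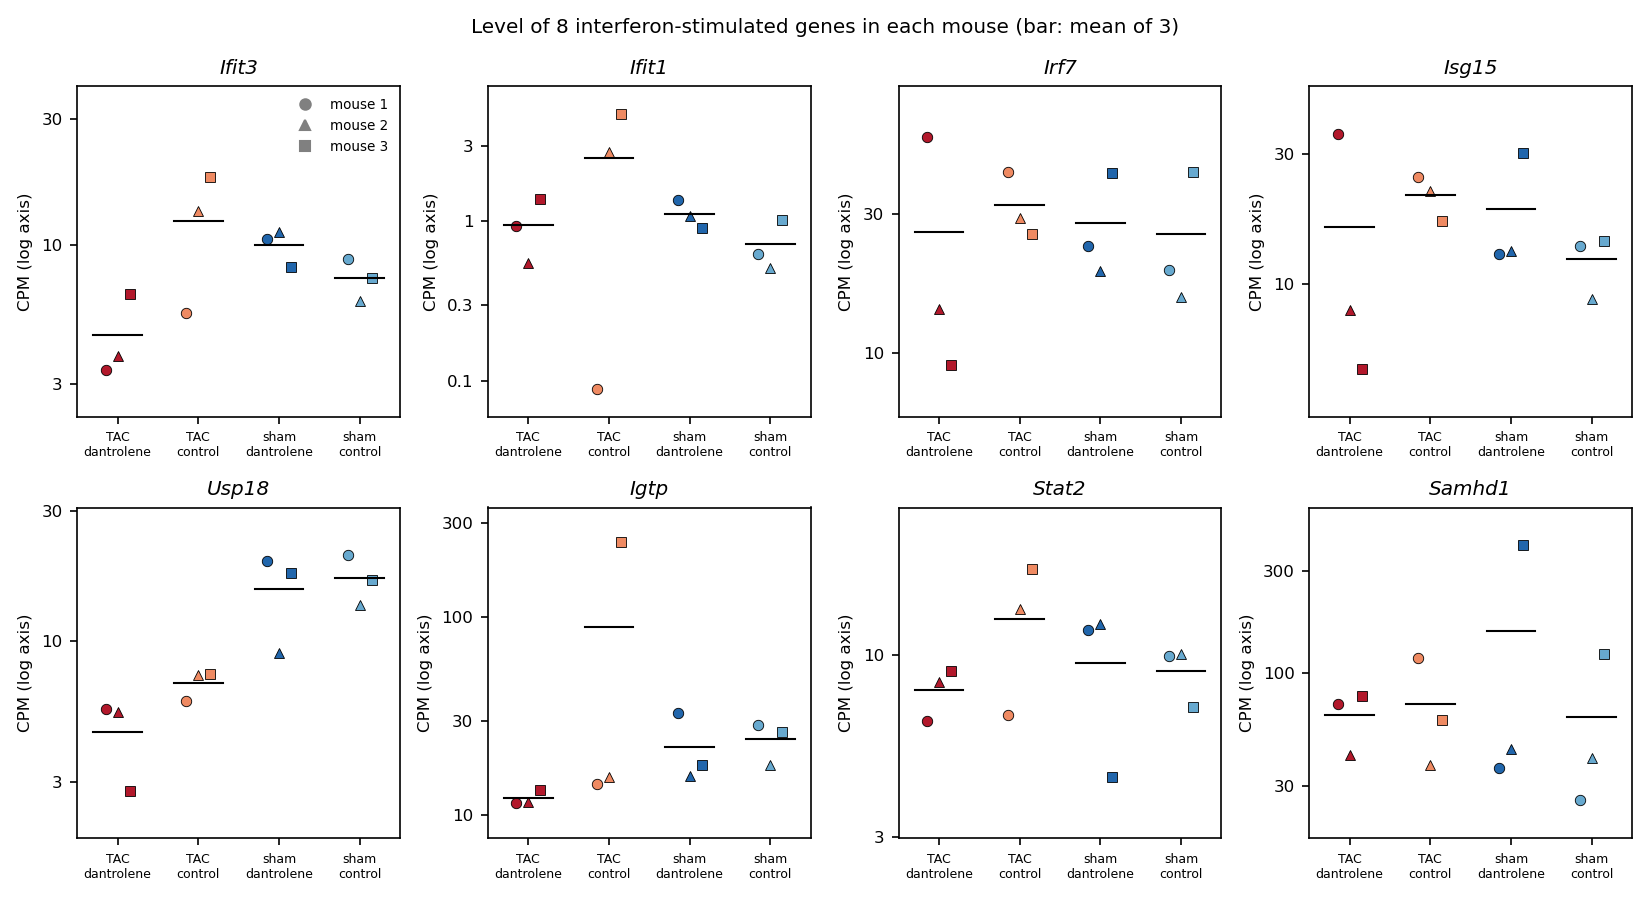
CPM on a log axis for 8 of the genes in TAC dantrolene, TAC control, sham dantrolene and sham control, each point 1 mouse (circle, triangle and square for mice 1, 2 and 3) and each bar the mean of 3. Igtp reached 239.6 CPM in TAC control 3 and Samhd1 393.6 CPM in sham dantrolene 3, each far above the other mice of its group.

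The values depended on the libraries apart. Treated and control mice with the same number deviated together within each surgery arm, so the numbers were read as pairs. Sham mice 1 and 2, which were not apart, also did so across numbers, with correlations of 0.375 and 0.305 beside 0.465 and 0.366 for the same number. Among them the correlations thus do not tell same from unlike numbers. The titles give a replicate number and no pairing, so the reading as pairs comes from these same counts. The pair counts and the block fits rest on it. In pair 1, made of libraries apart, 17 members were lower in TAC dantrolene and 23 higher, with a median log2 difference of 0.13 beside 0.009 over all genes. In pair 2 there were 37 lower and 3 higher (median -0.86 beside 0.04). In pair 3 there were 38 lower and 2 higher (median -1.27 beside 0.03). Each pair is 1 mouse against 1. With the replicate number as a block, 15 members were lower at an unadjusted p under 0.05, beside 5.42% of all genes, and 0 passed after adjustment by edgeR, beside 0%. Without the 4 libraries apart, which leaves mice 2 and 3 in each TAC group, 27 members were lower at an unadjusted p under 0.05, beside 9.58% of all genes, and 9 after adjustment, beside 1.53%. The median over the 40 was then -1.22.

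In that fit of 8 libraries the following members fell on the log2 scale by edgeR. Ifi27l2a fell by 1.76 (SE 0.25, adjusted p = 0.0151), Xaf1 by 1.60 (SE 0.36, adjusted p = 0.0428), Isg15 by 1.59 (SE 0.31, adjusted p = 0.0297) and Ifit3 by 1.59 (SE 0.33, adjusted p = 0.0359). Oas1a fell by 1.36 (SE 0.32, adjusted p = 0.0479), Rtp4, a chaperone of membrane receptors, by 1.29 (SE 0.31, adjusted p = 0.0494), and Bst2 by 1.25 (SE 0.29, adjusted p = 0.0478). The transcription factors Irf7 and Irf9 fell by 1.24 (SE 0.25, adjusted p = 0.0354) and by 1.17 (SE 0.26, adjusted p = 0.0428). These 9 calls rest on 2 mice against 2, and with all 12 libraries none of the 9 passed. Without TAC dantrolene 1 alone, the median over the 40 was -0.997 and 14 members were lower at an unadjusted p under 0.05, beside 8.4% of all genes. Without TAC control 3 alone, the median was -0.38 and 2 members were lower, beside 1.03%.

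**Figure D3:**
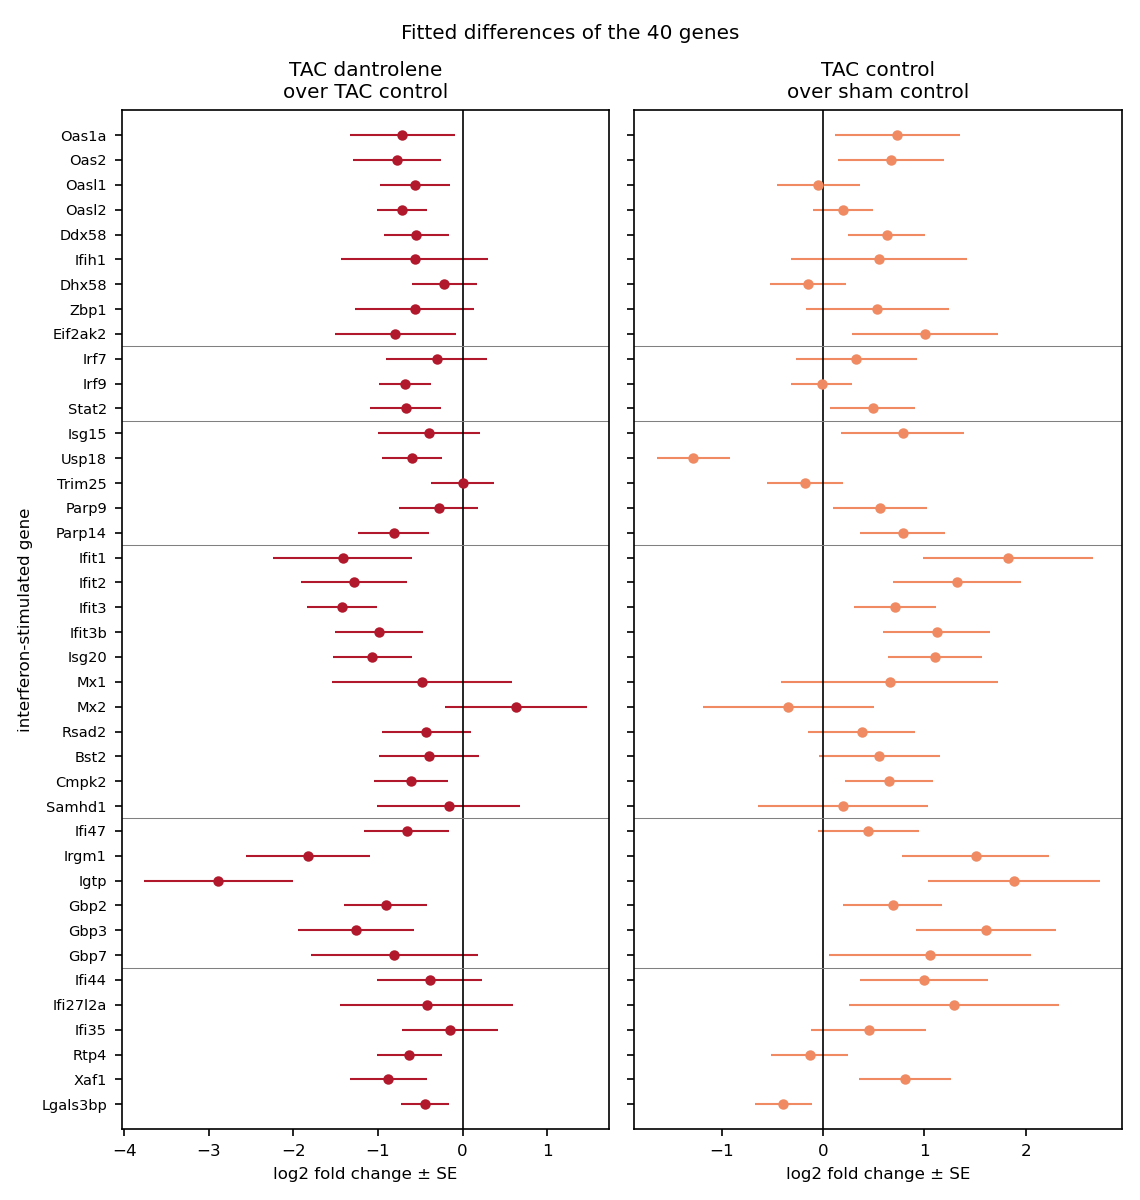
Fitted log2 fold change with its standard error for each of the 40 genes, ordered by role down the page, for TAC dantrolene over TAC control (left) and TAC control over sham control (right), with 3 mice per group. In the left panel 38 points lie below 0 and in the right panel 32 lie above 0, with Usp18 at -1.28.

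The second comparison asks what pressure overload did without the drug. Log2 fold changes of TAC control over sham control were positive for 32 of 40 members, beside 57.2% of all genes, with a median of 0.64 beside 0.10 over all genes. By edgeR 0 members passed after adjustment, beside 0% of all genes. Without adjustment 3 were higher at a p under 0.05, beside 4.13%, and 1 was lower, beside 3.8%. DESeq2 called 0 after adjustment, beside 0.282% of all genes, and 6 higher without it, beside 3.25%. The groups did not overlap for 3 members higher, Isg20, Ddx58 and Isg15, beside 7.54% of all genes, and for 2 lower, Usp18 and Lgals3bp, beside 9.82%. Positive signs were found for 7 of 9 sensors (median 0.55), 2 of 3 transcription factors (0.33), 3 of 5 genes of the ISG15 system (0.56), 10 of 11 effectors (0.66), 6 of 6 GTPases (1.28) and 4 of 6 others (0.63). The TAC control mice enter this comparison and the first, on opposite sides.

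Usp18 stood opposite to most of the list. It measured 5.99, 7.43 and 7.49 CPM in TAC control hearts, against 20.7, 13.5 and 16.7 CPM in sham control hearts, every TAC control mouse lying below every sham control mouse. The log2 fold change was -1.28 ± 0.36 (edgeR adjusted p = 0.474). In the drug-treated arms it measured 5.59, 5.45 and 2.79 CPM in TAC dantrolene hearts, against 19.6, 8.96 and 17.7 CPM in sham dantrolene hearts, again without overlap (-1.74 ± 0.37, edgeR adjusted p = 1.00). All 6 hearts with TAC thus held less Usp18 mRNA than all 6 sham hearts, a count made after the values were seen. The share of all genes parted in this way was not computed. Within each arm, TAC lay below sham without overlap for 9.82% of all genes without the drug and 1.96% with it. The unadjusted p of TAC control over sham control stayed under 0.05 whichever single library was left out.

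The Ifit cluster lay on the positive side. Ifit1 (ENSMUSG00000034459.8, chr19:34640871-34650009, plus strand) measured 0.0888, 2.74 and 4.73 CPM in TAC control hearts, against 0.627, 0.509 and 1.02 CPM in sham control hearts (log2 fold change 1.82 ± 0.84, edgeR adjusted p = 0.629). TAC control 2 and 3 lay above every sham control mouse and TAC control 1 below every one. Ifit2 gave 1.33 ± 0.63 (adjusted p = 0.644), Ifit3b 1.12 ± 0.53 (adjusted p = 0.635) and Ifit3 0.71 ± 0.41 (adjusted p = 0.678) by edgeR. Without the 4 libraries apart Ifit1 rose by 2.68 ± 0.56 (adjusted p = 0.0339) and Ifit2 by 2.45 ± 0.56 (adjusted p = 0.0438) by edgeR, the 2 members higher after adjustment there, beside 1.18% of all genes. At an unadjusted p under 0.05 there were 21 members higher, beside 11.8%. That fit sets TAC control 2 and 3 against sham control 1 and 2.

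Isg20 measured 7.86, 11.8 and 6.17 CPM in TAC control hearts, against 5.35, 2.35 and 4.35 CPM in sham control hearts, with no overlap (log2 fold change 1.10 ± 0.46, edgeR adjusted p = 0.599). Isg15 averaged 21.2 ± 3.87 CPM in TAC control hearts and 12.3 ± 3.03 CPM in those of sham control mice (SD, n = 3 each), also with no overlap (0.79 ± 0.61, edgeR adjusted p = 0.76). The factors Stat2, Irf7 and Irf9 were at 0.49 ± 0.42, 0.33 ± 0.60 and -0.01 ± 0.30 on the log2 scale, with edgeR adjusted p of 0.781, 0.903 and 0.994. Oasl2 was at 0.19 ± 0.30 (adjusted p = 0.881), Parp14 at 0.79 ± 0.42 (adjusted p = 0.666) and Xaf1 at 0.81 ± 0.45 (adjusted p = 0.674).

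Of the GTPases, Igtp and Irgm1 again turned on TAC control 3. Gbp3 was at 1.61 ± 0.69 (edgeR adjusted p = 0.603), Gbp2 at 0.69 ± 0.49 (adjusted p = 0.737), Igtp at 1.88 ± 0.85 (adjusted p = 0.621) and Irgm1 at 1.51 ± 0.73 (adjusted p = 0.648) by edgeR. Without TAC control 3, Igtp was at -0.70 and Irgm1 at -0.35, both with the opposite sign, while Gbp3 and Gbp2 kept theirs at 0.45 and 0.21. The median over the 40 members was then 0.32. In sham control hearts Igtp had stood at 28.6, 18.04 and 26.5 CPM.

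TAC control 3 was the highest of the 12 libraries for 19 members, as it was for 16.4% of all genes. By excess over the next highest library on the log2(CPM + 0.1) scale, Igtp ranked 7 among all genes tested with 2.87, Irgm1 ranked 8 with 2.26 and Gbp3 ranked 14 with 1.61. Gbp6, a guanylate-binding protein outside the list, picked after its values were seen, had 2 gene rows, the higher of which was at 61.3 CPM in TAC control 3 and at most 4.45 CPM elsewhere. Ifng, interferon gamma itself, had at most 2 reads in any library and 0 in TAC control 3. The mitochondrial share was also highest in TAC control 3, and its part in these levels was not tested. At the other end, TAC dantrolene 3 was the lowest library for 12 members, among them Isg15, Usp18, Irf7, Irf9, Oas2 and Oasl1, beside 11% of all genes.

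In sham hearts the drug gave no difference past the threshold. Log2 fold changes of sham dantrolene over sham control were positive for 28 of 40 members, beside 52.5% of all genes, with a median of 0.23 beside 0.02. By edgeR 0 members passed after adjustment, beside 0% of all genes. At an unadjusted p under 0.05 there were 0 higher and 0 lower, beside 0.327% and 0.388% of all genes. DESeq2 called 0 after adjustment, beside 0%, and 0 without it, beside 0.544% higher. In no member were the groups free of overlap, beside 2.99% of all genes higher and 4.38% lower. With the replicate number as a block, Gbp7, Mx1 and Samhd1 were higher at an unadjusted p under 0.05, 3 members beside 2.83% of all genes, and 0 after adjustment by edgeR, beside 0%. Without the 4 libraries apart, Ifit2 was the 1 member higher at an unadjusted p under 0.05, beside 0.949%, and 0 passed after adjustment, beside 0%.

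The members with the largest fold changes there were high in 1 mouse, sham dantrolene 3, a library apart. Samhd1 (ENSMUSG00000027639.14, chr2:157097533-157135265, minus strand) measured 36.2, 44.5 and 393.6 CPM in sham dantrolene hearts, against 25.6, 40.6 and 122.5 CPM in sham control hearts. Mx1 measured 1.24, 1.99 and 23.6 CPM in sham dantrolene hearts, against 0.927, 1.37 and 5.44 CPM in sham control hearts. In both genes and both groups mouse 3 was the highest. The log2 fold changes were 1.80 ± 1.09 for Mx1, 1.51 ± 1.01 for Gbp7, 1.33 ± 0.85 for Samhd1 and 1.21 ± 0.88 for Ifih1 (edgeR adjusted p = 1.00 for all 4). Without sham dantrolene 3 they were -0.67, -0.61, -0.64 and -0.79, each with the opposite sign, and the median over the 40 was -0.045. Sham dantrolene 3 was the highest of the 12 libraries for 8 members, beside 10.8% of all genes. The summed level of 5 neutrophil markers was 73.95 CPM in that mouse and at most 18.7 CPM in any other, and their part in these values was not tested.

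The other named members lay between -0.22 and 0.61 in sham hearts. Ifit3 was at 0.41 ± 0.41, Ifit3b at 0.54 ± 0.53, Ifit2 at 0.37 ± 0.63, Isg15 at 0.61 ± 0.61, Cmpk2 at 0.49 ± 0.43, Gbp2 at 0.43 ± 0.49, Gbp3 at -0.000585 ± 0.67 and Parp14 at 0.28 ± 0.42. Irf7 was at 0.13 ± 0.60, Irf9 at -0.09 ± 0.30, Stat2 at 0.08 ± 0.42, Usp18 at -0.14 ± 0.35, Igtp at -0.14 ± 0.82, Irgm1 at 0.27 ± 0.72, Oasl2 at -0.22 ± 0.30, Isg20 at 0.11 ± 0.46 and Xaf1 at 0.19 ± 0.45, with edgeR adjusted p = 1.00 for each of these 17. Ifit3 measured 10.5, 11.2 and 8.31 CPM in sham dantrolene hearts, against 8.92, 6.204 and 7.56 CPM in sham control hearts. The levels of both sham groups lay between those of TAC dantrolene and the 2 higher TAC control mice, apart from an overlap at 6.204 CPM in sham control 2 and 6.58 CPM in TAC dantrolene 3.

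Under the drug, TAC dantrolene was compared with sham dantrolene. Log2 fold changes were negative for 33 of 40 members, beside 40.1% of all genes, with a median of -0.32 beside 0.08. By edgeR 0 members passed after adjustment, beside 0% of all genes. At an unadjusted p under 0.05 Usp18, Ifit3 and Lgals3bp were lower, 3 members beside 0.648%, and 0 were higher, beside 1.06%. DESeq2 called 0 after adjustment, beside 0%, and 3 lower without it, beside 0.862%. The groups did not overlap for Usp18, Ifit3 and Igtp, all lower, beside 1.96% of all genes, and for 0 members higher, beside 2.9%. Without the 4 libraries apart 14 members were lower at an unadjusted p under 0.05, beside 4.54%, and 0 after adjustment, beside 0%.

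Ifit3 measured 3.401, 3.85 and 6.58 CPM in TAC dantrolene hearts, against 10.5, 11.2 and 8.31 CPM in sham dantrolene hearts (log2 fold change -1.12 ± 0.41, edgeR adjusted p = 1.00). All treated TAC hearts lay below all treated sham hearts for this gene. Lgals3bp was at -0.63 ± 0.28, Irf9 at -0.60 ± 0.30, Rtp4 at -0.69 ± 0.38, Gbp2 at -0.66 ± 0.49, Igtp at -0.87 ± 0.83 and Samhd1 at -1.30 ± 0.85, and Samhd1 was at 0.67 without sham dantrolene 3. Isg15 was at -0.22 ± 0.60, Irf7 at -0.11 ± 0.60 and Stat2 at -0.26 ± 0.42. Ifit2, Ifit3b and Irgm1 were at -0.32 ± 0.63, -0.41 ± 0.52 and -0.59 ± 0.72, Oasl2, Parp14 and Xaf1 at -0.30 ± 0.30, -0.31 ± 0.42 and -0.26 ± 0.45, and Isg20 and Gbp3 at -0.07 ± 0.46 and 0.35 ± 0.69, with edgeR adjusted p = 1.00 for all 18 given here. The mice of this comparison also enter the first and the third.

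**Figure D4:**
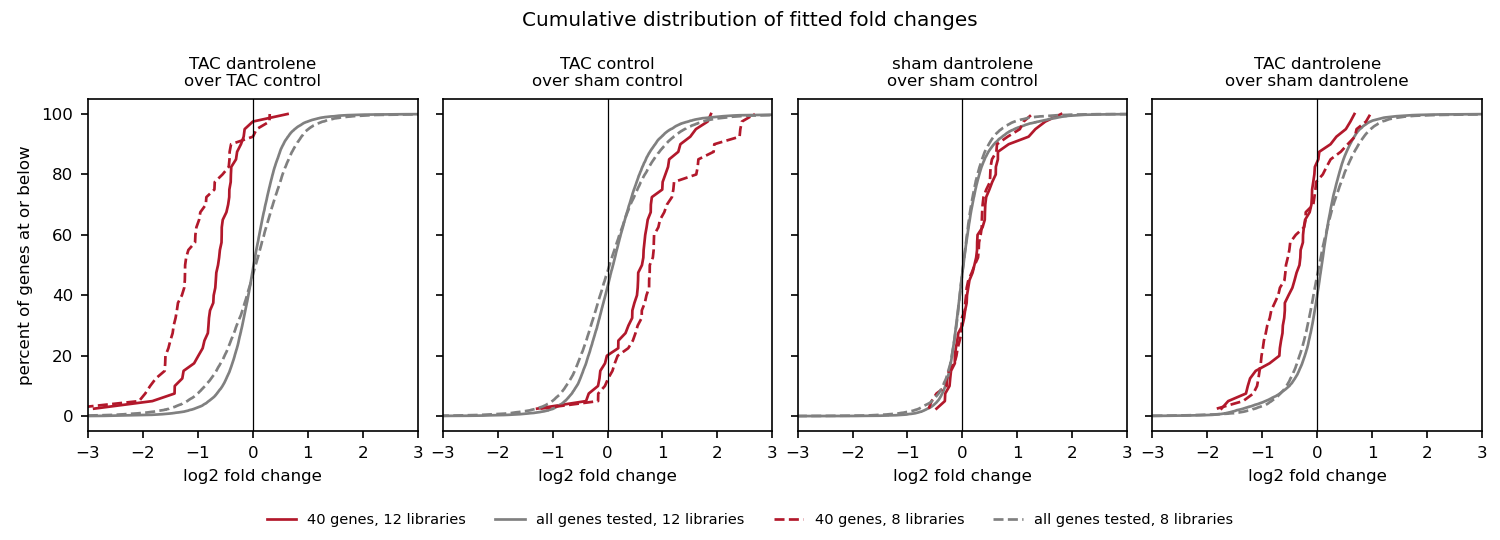
Percent of genes at or below each fitted log2 fold change for the 40 interferon-stimulated genes (red) and all genes tested (grey), with all 12 libraries (solid) and without the 4 libraries apart (dashed), in 4 comparisons. The red curve lies left of the grey one in TAC dantrolene over TAC control, with medians of -0.62 and 0.02 over 12 libraries, and right of it in TAC control over sham control, with 0.64 and 0.10.

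Whether the drug difference under TAC differed from that in sham hearts was tested as an interaction. It was negative for 37 of 40 members, beside 50.5% of all genes, with a median of -1.07 beside -0.01 on the log2 scale. By edgeR 0 members passed after adjustment, beside 0% of all genes, and at an unadjusted p under 0.05 2 were lower, beside 1.27%, and 0 higher, beside 1.55%. These were Ifit3 at -1.83 ± 0.58 and Igtp at -2.75 ± 1.19, both with an edgeR adjusted p of 1.00. DESeq2 called 0 after adjustment, beside 0.00397%, and 3 lower without it, beside 1.43%. With the replicate number as a block 13 members were lower at an unadjusted p under 0.05, beside 5.43%, and 0 after adjustment, beside 0%. Without the 4 libraries apart 22 were lower, beside 6.25%, and 0 after adjustment, beside 0.0465%. Irgm1 was at -2.10 ± 1.02, Ifit2 at -1.65 ± 0.89, Ifit3b at -1.53 ± 0.74, Gbp2 at -1.34 ± 0.69, Isg20 at -1.17 ± 0.65, Irf9 at -0.59 ± 0.43, Stat2 at -0.75 ± 0.59, Isg15 at -1.01 ± 0.86, Usp18 at -0.46 ± 0.50 and Irf7 at -0.43 ± 0.84. Parp14, Xaf1, Gbp3 and Oasl2 were at -1.09 ± 0.59, -1.06 ± 0.64, -1.26 ± 0.97 and -0.50 ± 0.42, with edgeR adjusted p = 1.00 for these 14. For Igtp, Irgm1 and Gbp3 the size again came from TAC control 3. Without that mouse the interaction was -0.16 for Igtp, -0.24 for Irgm1 and -0.095 for Gbp3, while Ifit3 was at -1.45.

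In Isg15, Irf7, Oas1a, Ifi27l2a, Ifi35, Ifih1, Dhx58 and Bst2 the library apart was the highest of its group in all 4 groups, and these 8 of 40 members were a share near the 17.2% of all genes. In Stat2 and Trim25 it was the lowest in all 4, 2 members beside 18.6%. TAC dantrolene 1 was the highest of the 12 libraries for 4 members, Isg15, Irf7, Ifi35 and Bst2, beside 15% of all genes. Ifi27l2a measured 297.5, 22.1 and 19.6 CPM in TAC dantrolene hearts, against 313.9, 74.4 and 67.2 CPM in TAC control hearts, with mouse 1 far above the others in both groups. The 8 members had a median exonic length of 1806 bases, beside 3695 bases for all 40 and 4132 for all genes with a length. Across genes, exonic length and the difference between the libraries apart and the others had a Spearman correlation of -0.18 over the 40 members and -0.41 over 14911 genes of the same libraries. Ifih1 and Samhd1, with 8165 and 9150 bases, were long and yet higher in the libraries apart, by 1.75 and 1.71 log2 units. What sets these libraries apart was not tested.

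**Figure D5:**
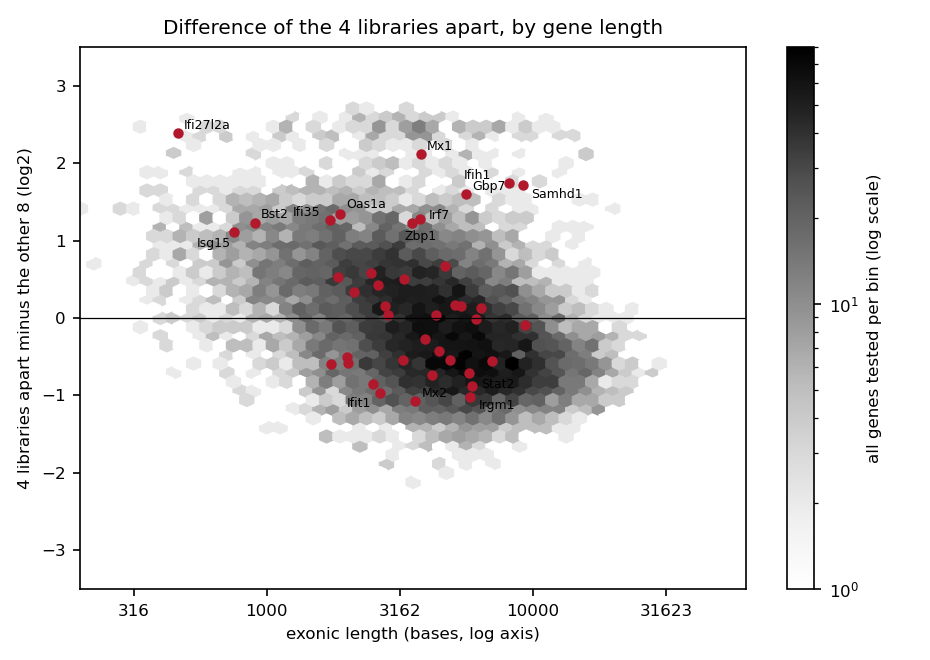
Mean log2(CPM + 0.1) of the 4 libraries apart minus that of the other 8 (vertical axis) by exonic length in bases (horizontal log axis), for the 40 interferon-stimulated genes (red points) over the 14911 genes with a length (grey bins, darker for more genes). Ifi27l2a, with 463 bases, lies highest of the 40 at 2.38, and Mx2 and Irgm1 lie lowest at -1.08 and -1.01.

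Genes that make and transmit the interferon signal were read from a list of 32 symbols. Of these, Ifnb1, Ifna1, Ifna2 and Ifna4 had no row in the counts read here, and Ifng was too low to test. With the 2 gene rows of Trex1 this left 28 tested. By edgeR 0 passed after adjustment in any of the 5 comparisons. At an unadjusted p under 0.05 there was 1 of the 28, lower in TAC control than sham control, beside 3.8% of all genes. This was Ifngr2, a chain of the interferon gamma receptor, which measured 148.8, 104.3 and 121.8 CPM in TAC control hearts, against 207.3, 201.5 and 188.5 CPM in sham control hearts (log2 fold change -0.67 ± 0.23, edgeR adjusted p = 0.527). All TAC control mice lay below all sham control mice for it, as for 9.82% of all genes. In the same comparison Jak2, the kinase of that receptor, was at 0.89 ± 0.42, Tlr3, a sensor of double-stranded RNA, at 1.03 ± 0.56 and Tbk1, a kinase that activates IRF3, at 0.88 ± 0.50.

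Between TAC dantrolene and TAC control, 18 of the 28 were negative with a median log2 fold change of -0.07, beside -0.62 in the interferon-stimulated genes. Irf1, a factor induced by interferon gamma, measured 34.3, 10.1 and 23.2 CPM in TAC dantrolene hearts, against 31.4, 41.1 and 44.7 CPM in TAC control hearts. TAC dantrolene 1 lay above TAC control 1 and the other treated mice below all controls (-0.80 ± 0.38, edgeR adjusted p = 1.00). Jak2 was at -0.67 ± 0.42 and Irf8, a myeloid factor, at 0.64 ± 0.47. In sham hearts Socs1, a feedback inhibitor of the kinases, was at -0.79 ± 0.70 and Mavs, the adaptor of the RNA helicases, at -0.29 ± 0.31 for sham dantrolene over sham control.

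Markers of cells that can carry an interferon response were summed per library. The 15 macrophage markers came to 520.8 to 1953 CPM in TAC dantrolene, 1122 to 1709 CPM in TAC control, 716.1 to 1751 CPM in sham dantrolene and 640.7 to 1257 CPM in sham control. The highest sum of each group was that of its library apart. Lyz2, C1qa, C1qb and C1qc weighed most, with 801.2, 415.4, 324.5 and 248.2 CPM in TAC dantrolene 1. Of the 15 macrophage markers 12 had a negative log2 fold change in TAC dantrolene over TAC control (median -0.37) and 14 a positive one in TAC control over sham control (median 0.40). The 7 fibroblast markers came to 445.9 to 698.1 CPM in TAC dantrolene, 490.1 to 1367 CPM in TAC control, 599.9 to 756.9 CPM in sham dantrolene and 417.5 to 573.4 CPM in sham control, with 6 negative in the first of these comparisons (-0.80) and 7 positive in the second (0.76). Both lists thus had the same majority sign as the interferon-stimulated genes, no marker passed after adjustment by edgeR, and their part in the differences was not tested. In the interaction 14 macrophage markers (median -0.49) and 6 fibroblast markers (-1.13) were negative.

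The 11 T and NK cell markers came to 1.79 to 5.14 CPM in TAC dantrolene, 4.05 to 8.17 CPM in TAC control, 3.67 to 11.1 CPM in sham dantrolene and 4.36 to 7.45 CPM in sham control, and 9 of them could be tested. Of these 9, 8 had a negative log2 fold change in TAC dantrolene over TAC control (median -0.90), with 1 lower at an unadjusted p under 0.05, beside 1.47% of all genes. In TAC dantrolene over sham dantrolene all 9 were negative (-0.99), with 2 lower at that level, beside 0.648%, and in the interaction all 9 were negative (-1.28). In TAC control over sham control 4 were positive (-0.02), without the majority sign of the interferon-stimulated genes. By edgeR 0 of the 9 passed after adjustment, and their part in the differences was not tested. The 4 B cell markers summed to 1.62 to 5.15 CPM over the 12 libraries, the 10 endothelial markers to 767.4 to 1532 CPM, and the 3 plasmacytoid dendritic cell markers to at most 0.405 CPM. In TAC dantrolene over TAC control 7 endothelial markers and 2 of 3 B cell markers tested were negative. In TAC control over sham control 7 endothelial and 3 B cell markers were positive, so these lists too had that majority sign. The first comparison was positive for 5 of 7 cardiomyocyte and all 4 tested neutrophil markers. Their part was not tested. The 7 cardiomyocyte markers, which define the labelled tissue, summed to 43501 to 59105 CPM. Single markers could spread more widely than the sum, as Myh6 did from 3152 CPM in TAC dantrolene 1 to 18872 CPM in TAC dantrolene 2.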

How the data were processed

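Poly(A) RNA of 12 left ventricles was sequenced as directional libraries in paired reads of 150 nt, per the labels' protocols. The authors deposited raw counts per gene (25319 genes) and FPKM values, scaled to gene length and library size (25258 genes). Of tools, bcl2fastq, TopHat2 and edgeR appear in the submitters' processing notes, with the build GRCm38. Which program counted the reads, on which annotation and with which use of strand, is not given in the sources used here, so reads of overlapping, antisense or near-identical genes may not be told apart. This touches 10 members with an overlapping gene, and the Ifit, Oas and Gbp families.

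Counts were tested across all genes with edgeR 4.0.16 in R 4.3.3. filterByExpr (minimum count 10, minimum total 15) left 14965 genes and removed 0.0418% of the counts. All 12 libraries, grouped by title, entered 1 robust quasi-likelihood fit of 4 group means with TMM scaling, 8 residual degrees of freedom and a common biological coefficient of variation of 0.443. Two-sided p-values received the Benjamini-Hochberg adjustment over the 14965 genes, with a threshold of 0.05. Each comparison is the first group over the second, and the interaction is the drug difference under TAC minus that under sham. The test was also run on simulated counts with known changes, where recovery was required only at a spread below that of these mice. Coordinates and exonic lengths are from GENCODE vM21 on GRCm38, which matched 25116 identifiers.

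Replicate numbers were taken as pairs for the drug comparisons, where deviations of same-numbered mice correlated at 0.556, 0.300 and 0.613 under TAC and 0.465, 0.366 and 0.672 under sham. They were not between TAC and sham (-0.294, 0.283 and -0.304 without the drug, -0.377, 0.270 and -0.313 with it). In the drug comparisons, unlike numbers among libraries not apart correlated at 0.375 and 0.305 under sham and at 0.0929 and 0.221 under TAC. Unlike numbers that joined a library apart with another correlated between -0.616 and -0.222.

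The members and lists were chosen with earlier results of these data known. Fold changes with adjusted p are given for the 12 members with the smallest p in TAC dantrolene over TAC control, the 6 with the smallest p in each comparison, and Irf7, Stat2, Irf9, Isg15, Usp18, Ifit3 and Ifit3b. Alternatives were DESeq2 1.42.0, its size factors in edgeR, no filter, limma 3.58.1 on log2(FPKM + 0.1), the replicate block, only the groups compared, leaving out each library, and leaving out the 4 libraries apart.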

Additional observations from a re-analysis of the deposited data

How the results depend on the processing

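Over the 89 fold changes of named members, 1675 alternative values were computed, of which 1614 kept their direction and their side of the threshold, 7 came past the threshold and 54 changed sign. The 54 are given here singly or within a range, counts that moved by over 1.5 times here or beside their result, and the cause was not tested. In TAC dantrolene over TAC control, leaving out the 4 libraries apart gave 9 members called, against 0, and a median log2 fold change of -1.22. In TAC control over sham control it gave 2 called and Irf9 at 0.18. In sham dantrolene over sham control it gave Ifih1 at -0.0097, Igtp at 0.067, Isg20 at -0.28 and Oasl2 at 0.052, and in TAC dantrolene over sham dantrolene Samhd1 at 0.55. The replicate block changed no call after adjustment and put Stat2 in sham hearts at -0.025. On FPKM the median of all genes shifted to 0.13, -0.18, -0.09, 0.00 and 0.21 in the order of the report, the sign of Oasl2 in TAC control over sham control turned (-0.053), as did Isg20 (-0.013) and Stat2 (-0.12) in sham hearts, and the median interaction was -0.67. Gbp3 in sham hearts was at 0.014 with the size factors of DESeq2, 0.012 by DESeq2 and 0.0016 in a fit of the 2 groups alone.

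Members at an unadjusted p under 0.05, lower in TAC dantrolene than TAC control, numbered 6, but 15 with the replicate block, 27 without the 4 libraries apart and 2 on FPKM (beside 1.2% of all genes). Higher in TAC control than sham control there were 3, but 6 by DESeq2, 1 with the block (1.92%), 21 without the 4 and 0 on FPKM (1.22%). For the interaction there were 2 lower, but 1 with no filter (1.53%), 13 with the block, 22 without the 4 and 0 on FPKM (0.849%). All genes called in TAC dantrolene over TAC control numbered 0, but 1 with no filter, 11 by DESeq2 and 478 without the 4, and in TAC control over sham control 0, but 3, 71 and 484, and 1 in a fit of the 2 groups alone. Without TAC control 1 they numbered 1 in the first and 15 in the second, which gave 1 also without TAC dantrolene 3 and without sham dantrolene 3.

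Leaving out each library in turn, TAC dantrolene over TAC control gave a median over the members of -0.997 to -0.38 and 0 called, 2 members lower at an unadjusted p under 0.05 without TAC dantrolene 2 (1.16% of all genes) to 15 without TAC control 1 (3.69%), and Irf7 -1.49 to 0.10, Isg15 -1.74 to 0.030, Irgm1 -2.33 to 0.029. TAC control over sham control gave 1 member higher without TAC control 3, sham control 1 or sham control 2 (2.13%, 2.48% and 2.18%) to 12 without TAC control 1 (9.28%), and Irf9 -0.29 to 0.14, Igtp -0.70 to 2.39, Irgm1 -0.35 to 2.01. Sham dantrolene over sham control gave a median of -0.045 to 0.33 and at most 3 members higher, without sham control 3 (2.44%), with Gbp3 -0.47 to 0.35, Gbp7 -0.61 to 2.92, Ifih1 -0.79 to 1.97, Igtp -0.53 to 0.053, Irf7 -0.27 to 0.68, Irf9 -0.21 to 0.013, Isg20 -0.35 to 0.37, Mx1 -0.67 to 2.96, Samhd1 -0.64 to 2.25, Stat2 -0.15 to 0.41, Usp18 -0.35 to 0.13, Xaf1 -0.013 to 0.39. TAC dantrolene over sham dantrolene gave a median of -0.73 to -0.098 and up to 13 members lower, without TAC dantrolene 1 (4.71%), with Irf7 -1.30 to 0.30, Isg15 -1.57 to 0.30, Isg20 -0.48 to 0.38, Xaf1 -1.07 to 0.043, Gbp3 -0.082 to 0.81, Samhd1 -1.76 to 0.67. The median interaction ran over -1.34 to -0.51, with up to 12 members lower, without TAC dantrolene 1 (6.83%). The spread between 3 mice a group limits these tests, and depth limits Ifit1, with 2 reads, and Mx2, with 0, in TAC control 1.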

Other observations

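The genes with the largest excess in TAC control 3 over the next highest library were looked up after the values were seen. Iigp1, a GTPase of the same family as Igtp and Irgm1, was at 70.6 CPM in TAC control 3 and at most 6.45 CPM in any other library. Gm4841 was at 23.1 CPM in TAC control 3 and at most 0.488 CPM in any other library, and F830016B08Rik at 17.7 CPM in TAC control 3 and at most 0.416 CPM in any other library. Gm10925, which ranked 5 by this excess, was at 31.3 CPM in TAC control 3 and at most 2.88 CPM elsewhere. Gm28437, which ranked 9, was at 203.2 CPM in TAC control 3 and at most 48.2 CPM elsewhere. Members of the list such as Isg15 and Irf7 stood at 17.1 and 25.5 CPM in that mouse, the lowest of their group, in which TAC control 1 is a library apart, and Isg15 there was still above all 3 sham control mice.

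Between libraries that both stood apart, the list was compared mouse by mouse. TAC control 1 over sham control 3 had 28 members lower and 12 higher, with a median log2 difference of -0.36, and sham dantrolene 3 over sham control 3 had 17 lower and 23 higher (0.069). TAC dantrolene 1 over sham dantrolene 3 had 22 lower and 18 higher (-0.18). Each is 1 mouse against 1, with no replicate check.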
